A study of Mus musculus with 7 samples.

Results

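The tumour suppressor p53 and the genes around it were followed in cultured mouse haematopoietic stem cells exposed to drugs that block DNA synthesis. The set held 32 genes, picked by symbol as p53 itself, its close regulators and well-known target genes. All 32 were among the 52224 genes of the deposited expression table, and 30 of them reached the level needed for testing. They comprised 4 genes for p53 and its regulators, 7 for growth arrest, 13 for apoptosis, 4 for DNA repair and nucleotide supply, and 4 for metabolism and autophagy.

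The cells came from the bone marrow of wild-type C57BL/6J mice and carried the surface phenotype CD48-CD150+LSK, a sort for lineage-negative Sca-1+ Kit+ cells rich in stem cells. After sorting they were kept in culture for 48 h with the solvent DMSO (3 libraries), with gemcitabine at 0.5 µM (Gem, 2 libraries) or with hydroxyurea at 100 µM (HU, 2 libraries), so that the sort and the culture time are common to every group. Gemcitabine is a deoxycytidine analogue that enters DNA and inhibits ribonucleotide reductase, and hydroxyurea inhibits the same enzyme, which makes the building blocks of DNA. Whether replicate libraries derive from different animals or different dishes is not said in the labels, and a p-value therefore reflects just the library-to-library spread, which could be technical.

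p53 is a transcription factor that is held at a low level by the ubiquitin ligase Mdm2 and its partner Mdm4, and that is stabilised, mostly at the protein level, when DNA is damaged or replication stalls. Stabilised p53 binds its target genes and can raise their transcription, which halts the cell cycle, promotes repair, alters metabolism or triggers cell death. In haematopoietic stem cells p53 is known to take part in quiescence and in the response to radiation and to drugs. The measurements here are of messenger RNA and hold nothing on the amount or activity of the p53 protein.

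Values are FPKM, the fragments per kilobase of transcript scaled to the mapped fragments of a library, and are therefore comparable between genes per length. Added over all genes, the DMSO libraries reached 818775 to 832979, the Gem libraries 703016 to 729258 and the HU libraries 647760 to 651315. The mean FPKM of 1766 chemosensory receptor genes, which blood cells are not known to use, lay between 0.0131 and 0.0203 with DMSO, between 0.0735 and 0.0839 with Gem, and between 0.133 and 0.147 with HU. With the values as deposited the median log2 fold change of all 13865 tested genes was -0.25 in Gem and -0.30 in HU against DMSO. Each comparison is therefore given on the deposited scale and again after a trimmed-mean scaling between libraries, which moved those medians to 0.01 and 0.01. Fold changes are differences of log2(FPKM + 1), so that those of weakly expressed genes come out too small, and adjusted p-values are from limma with Benjamini-Hochberg adjustment over all tested genes.

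Marker genes of the sorted population were present, with 8 of 11 stem cell markers at a mean FPKM of at least 1. Added together they gave 269 to 278 FPKM with DMSO, 212 to 231 with Gem and 190.4 to 193 with HU. The 11 granulocyte and monocyte markers were all detected and together gave 41342 to 46613 FPKM with DMSO, 49445 to 51441 with Gem and 46188 to 49580 with HU. Most of that sum was Lyz2, a lysozyme gene, and the other 10 markers together gave 14673 to 21432 FPKM with DMSO, 13891 to 17094 with Gem and 13158 to 13719 with HU. Mast cell and basophil markers spread widely between the DMSO libraries, from 254 to 1254, against 200.5 to 378 in Gem and 190.1 to 193 in HU, while no marker of any list was at 0 in every library. The part of these shifts in the results for p53 genes was not tested. In RNA pooled from many cells, fewer cells of a type and less RNA per cell cannot be told apart.

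The DNA to which p53 binds is built from a decamer of purines, a C, a pair of A or T bases, a G and pyrimidines, which reads alike on both strands, and sites usually hold decamers in pairs. RefSeq promoter windows (build GRCm38.p6, 250 bases before to 50 after a gene's start) were found for 24 of the 32 genes, and 11 of the 24 (45.8%) held an exact p53 consensus decamer. Over all 32851 windows 8.36% held one, and over all 27025 genes 9.55% did. The members were picked largely as known p53 targets, so a higher share among them can come from that choice. The following 30-base stretches show the decamer in capitals for the genes on which the results below turn, each 5′ to 3′ on the strand of its gene:
Trp53 (chr11:69580274-69580303, plus strand): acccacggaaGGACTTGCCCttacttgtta
Mdm2 (chr10:117710925-117710954, minus strand): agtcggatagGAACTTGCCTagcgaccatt
Gadd45a (chr6:67037428-67037457, minus strand): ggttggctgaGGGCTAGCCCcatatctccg
Bax (chr7:45467080-45467109, minus strand): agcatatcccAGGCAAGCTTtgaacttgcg
Aen (chr7:78895927-78895956, plus strand): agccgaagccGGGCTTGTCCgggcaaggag
Ei24 (chr9:36797325-36797354, minus strand): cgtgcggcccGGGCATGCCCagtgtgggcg
Ccng1 (chr11:40755452-40755481, minus strand): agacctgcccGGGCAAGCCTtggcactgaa

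Cdkn1a was the member with 2 exact decamers in its window, a number that 0.359% of all windows reached or passed. The 250 bases before its upstream RefSeq start are shown whole because they hold both, in capitals, at positions -73 and -51 from that start:
Cdkn1a (chr17:29090729-29090978, plus strand): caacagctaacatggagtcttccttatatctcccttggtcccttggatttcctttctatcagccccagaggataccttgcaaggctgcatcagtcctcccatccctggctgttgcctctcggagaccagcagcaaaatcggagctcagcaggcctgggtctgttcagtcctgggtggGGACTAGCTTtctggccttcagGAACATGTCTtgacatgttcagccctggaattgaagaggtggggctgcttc

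The second of them runs straight into a further near-match, and this 20-base run differs from 2 decamers end to end at no more than 1 base. Only Cdkn1a and Ccng1 among the 24 members had such a run, which 29 of all 32851 windows (0.0883%) held. Among members whose RNA was called lower in the drugs combined, 7 of the 12 with a window had a decamer, and among other tested members 4 of 11. These calls are those of the deposited scale, and after trimmed-mean scaling 0 members were called. The share with a decamer among all genes called lower is not given here, and a link between decamer and call was not tested. A match describes the letters of a window and is not a measured binding site, and a window without one says nothing about sites elsewhere in the gene.

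With DMSO alone the p53 genes spread over a wide range of levels. Bax was the most abundant at 263 ± 7.81 FPKM (SD, n = 3), ahead of Trp53 at 151 ± 14.2 and Cdkn1a at 99.8 ± 8.09, and the DMSO libraries of these 3 genes did not overlap with those of the gene next in order. Ccng1 (45.4 ± 2.20), Btg2 (42.0 ± 2.62) and Mdm2 (36.6 ± 3.81) followed, with overlap between neighbours. From Dram1 at 29.9 down to Sesn1 at 19.2, each of the next 8 genes overlapped with its neighbour in that order. At the low end stood Ddit4 (1.60), Zmat3 (1.11), Perp (1.01), Tnfrsf10b (0.373) and Eda2r (0.177).

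**Figure D1:**
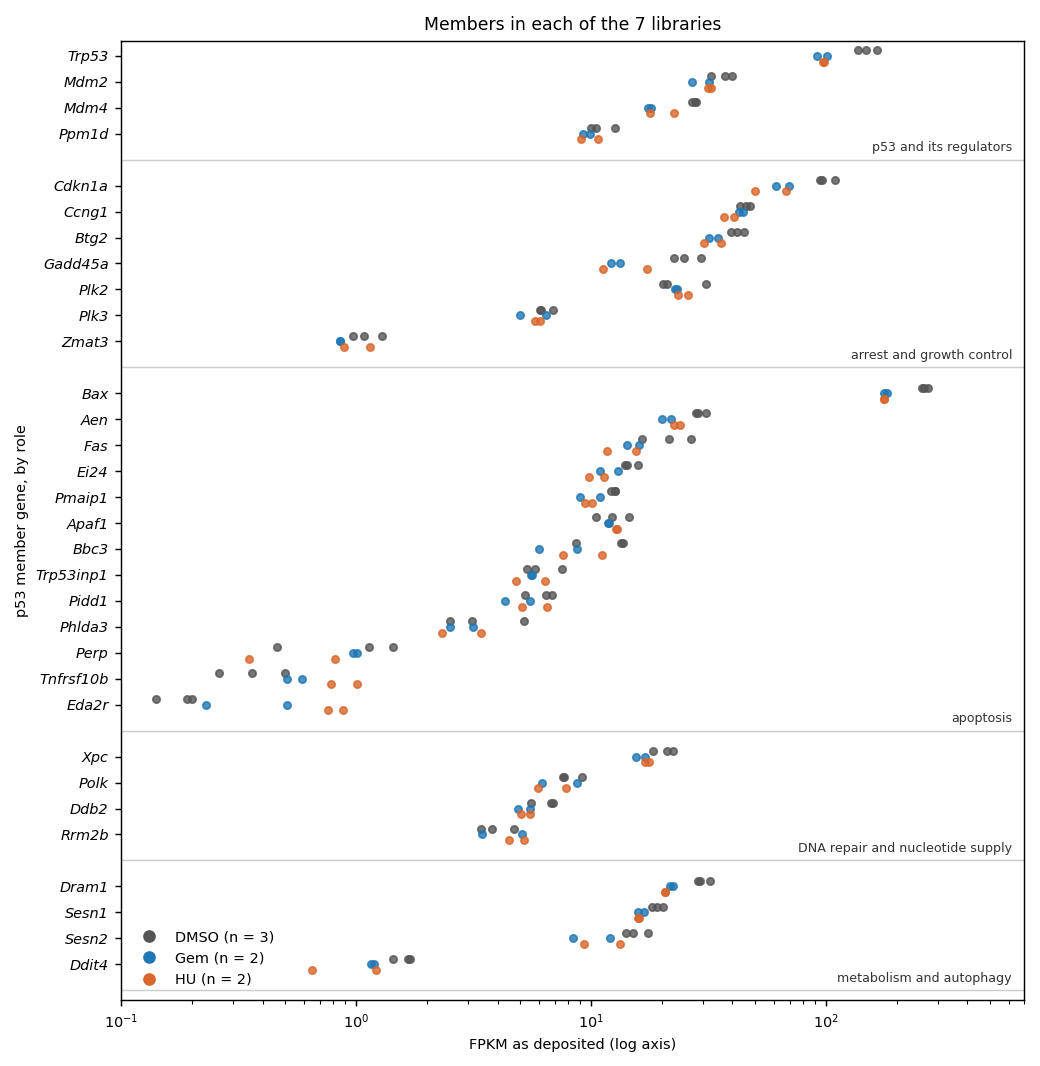
FPKM of each of the 32 genes (log axis, as deposited) in the 3 DMSO, 2 Gem and 2 HU libraries, 1 point per library, grouped by role. For Bax the DMSO points lie at 256 to 272 and the drug points at 176 to 183, while Tnfrsf10b and Eda2r at the low end are higher in HU than in DMSO.

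On the deposited scale no tested p53 gene was called higher in either drug, and those that were called were lower. Tnfrsf10b and Eda2r, which were not tested, were higher in every drug library than in every DMSO library. In Gem, 7 of the 30 tested genes were called lower and 0 higher, where 23.2% of all tested genes were called lower and 1.50% higher. In HU, 11 were lower and 0 higher, beside 35.5% lower and 4.46% higher of all genes. With the 4 drug libraries set together against the 3 DMSO libraries, 14 were lower and 0 higher, beside 37.5% and 2.98%. The members' median log2 fold change was -0.28 in Gem, -0.28 in HU and -0.26 in the drugs combined, against -0.25, -0.30 and -0.27 for all genes. The shares of p53 genes called lower in Gem and HU, 23.3% and 36.7%, thus lay near those of all genes, and the share in the combined comparison was 46.7%.

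After the trimmed-mean scaling 0 members were called in either direction in Gem, HU or the drugs combined by limma. The share of all genes called lower and higher was then 0.469% and 0.483% in Gem, 5.42% and 4.67% in HU, and 3.74% and 2.34% in the combined comparison. At an unadjusted p below 0.05 there were 5, 6 and 7 members in these 3 comparisons. The share of all genes at that unadjusted p is not given here, so these counts cannot be set against it. The smallest adjusted p was that of Bax in each, at 0.130, 0.0879 and 0.0551. The members' medians were -0.03, 0.04 and 0.01. In Gem 18 of the 30 scaled fold changes were below 0, in HU 11 and in the combined comparison 15. Below the median of all genes lay 20, 12 and 15 of the 30.

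**Figure D2:**
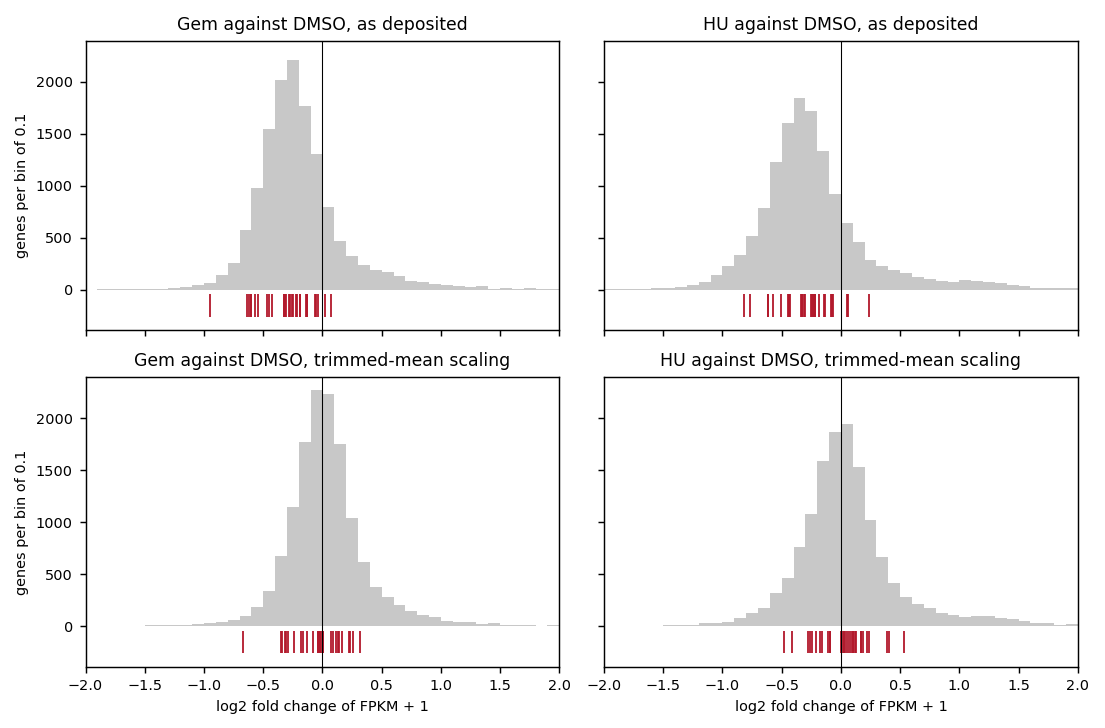
Histograms of the log2 fold change of FPKM + 1 for all 13865 tested genes (grey, genes per bin of 0.1), with each of the 30 tested p53 genes as a red tick below. In the upper row (as deposited) genes and ticks centre near -0.25 in Gem and -0.30 in HU, and in the lower row (trimmed-mean scaling) near 0.01.

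Separation of the libraries was counted over the same 30 tested members. As deposited, the members' downward shares lay above those of all genes in Gem, HU and the drugs combined. Whether they differ from all genes was not tested. With deposited values every Gem library lay below every DMSO library for 19 members and above for 0, beside 50.4% and 5.94% of all genes. For HU this held for 18 and 0 members, beside 53.9% and 8.24%, and for the drugs combined for 17 and 0, beside 42.6% and 3.76%. After scaling, 8 members were separated downwards and 1 upwards in Gem (17.5% and 18.0% of all genes), 4 downwards and 5 upwards in HU (20.2% and 21.3%), and 4 downwards and 0 upwards in the drugs combined (11.4% and 10.6%). The member separated upwards in Gem was Ccng1, and those in HU were Mdm2, Plk3, Apaf1, Rrm2b and Sesn1, all 6 short of the adjusted threshold.

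**Figure D3:**
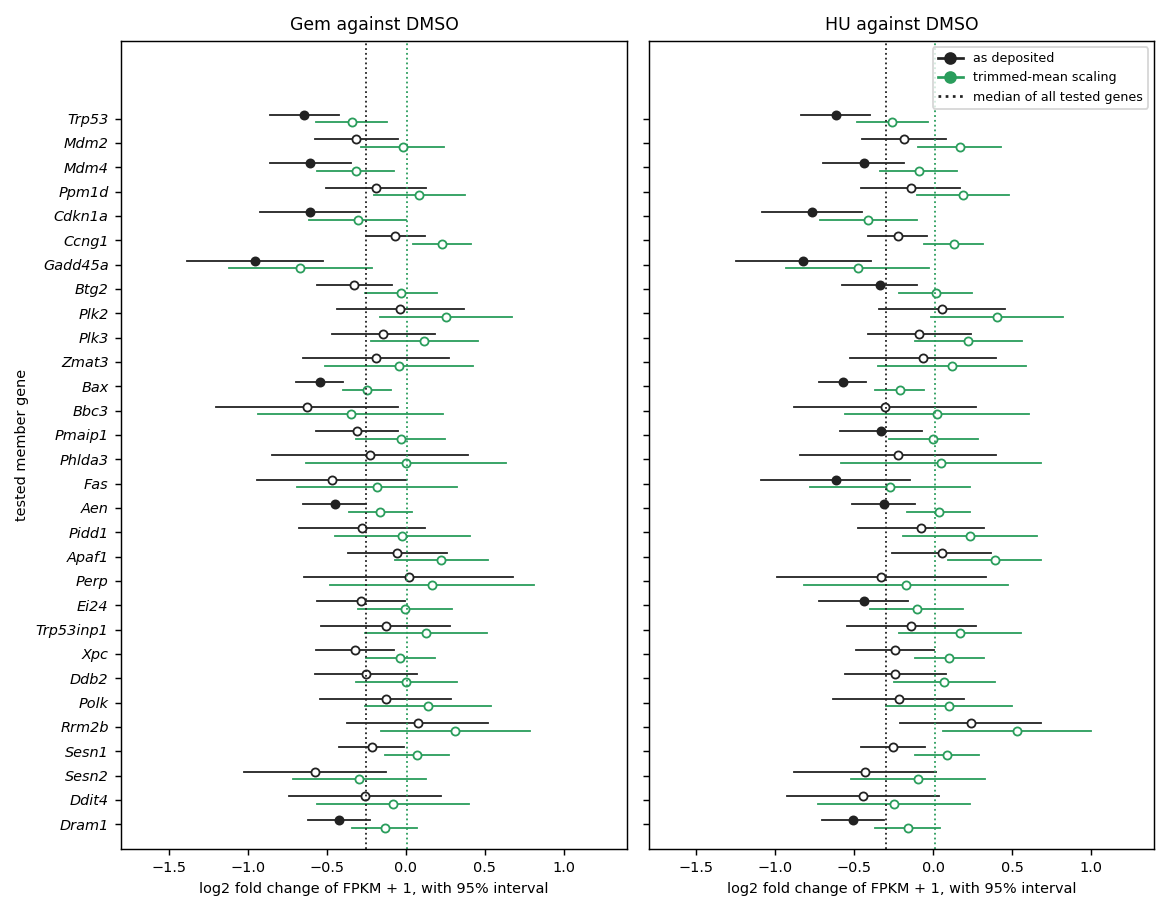
Log2 fold change of FPKM + 1 with its 95% interval for each tested p53 gene in Gem (left) and HU (right) against DMSO, as deposited (black) and after trimmed-mean scaling (green). Filled points passed an adjusted p of 0.05 and dotted lines mark the median of all tested genes. Filled points occur only with the deposited values, 7 in Gem and 11 in HU, and Gadd45a lies farthest to the left in each panel at -0.95 and -0.82.

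Of the genes for p53 and its regulators, Trp53 and Mdm4 were lower in each drug as deposited and Mdm2 and Ppm1d did not pass. Trp53, at chr11:69580359-69591873, stood at 149, 137 and 166 FPKM in the 3 DMSO libraries, 101 and 91.3 in Gem, and 96.8 and 98.2 in HU. Every drug library lay below every DMSO library. Its log2 level fell by 0.64 ± 0.093 (SE) in Gem (adjusted p = 0.00736) and by 0.62 ± 0.093 in HU (adjusted p = 0.00295). The scaled values were -0.34 (adjusted p = 0.143) and -0.26 (adjusted p = 0.145), with the scaled libraries still apart in each drug.

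Mdm4 encodes the partner of Mdm2 that binds and represses p53. At chr1:132959484-133030561 it gave 28.1, 27.7 and 26.9 FPKM in DMSO, 17.5 and 18.1 in Gem, and 17.8 and 22.6 in HU. The DMSO libraries were tight and the drug libraries all lay below them. The fall was by 0.60 ± 0.11 in Gem (adjusted p = 0.0112) and by 0.44 ± 0.11 in HU (adjusted p = 0.0171). The scaled change was -0.31 in Gem (adjusted p = 0.193) and -0.09 in HU (adjusted p = 0.644), where the groups overlapped.

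Mdm2, the ubiquitin ligase that is itself a classical p53 target, gave 37.2, 32.5 and 40.0 FPKM in DMSO, 31.7 and 26.8 in Gem, and 31.5 and 32.4 in HU (chr10:117688875-117710758). The lowest DMSO library stood only just above the highest HU library, and the Gem libraries lay lower. Its log2 fold change was -0.31 in Gem (95% interval -0.58 to -0.05, adjusted p = 0.0816) and -0.18 in HU (-0.45 to 0.08, adjusted p = 0.231). The scaled values of -0.02 in Gem and 0.17 in HU differ in sign, and neither passed (adjusted p = 0.957 and 0.404). Ppm1d, a phosphatase that switches off p53 signalling, gave 9.96 to 12.7 FPKM with DMSO, 9.22 to 9.87 with Gem and 9.07 to 10.8 with HU, and did not pass (adjusted p = 0.335 and 0.428). The Gem calls of Trp53 and Mdm4 were lost without the Gem 2 library (adjusted p = 0.0750 and 0.0838), and that of Mdm4 also without Gem 1. In HU the Mdm4 call was lost without DMSO 1 or without HU 1, and the combined calls of Trp53 and Mdm4 held in all 7 fits that each left out 1 library.

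**Figure D4:**
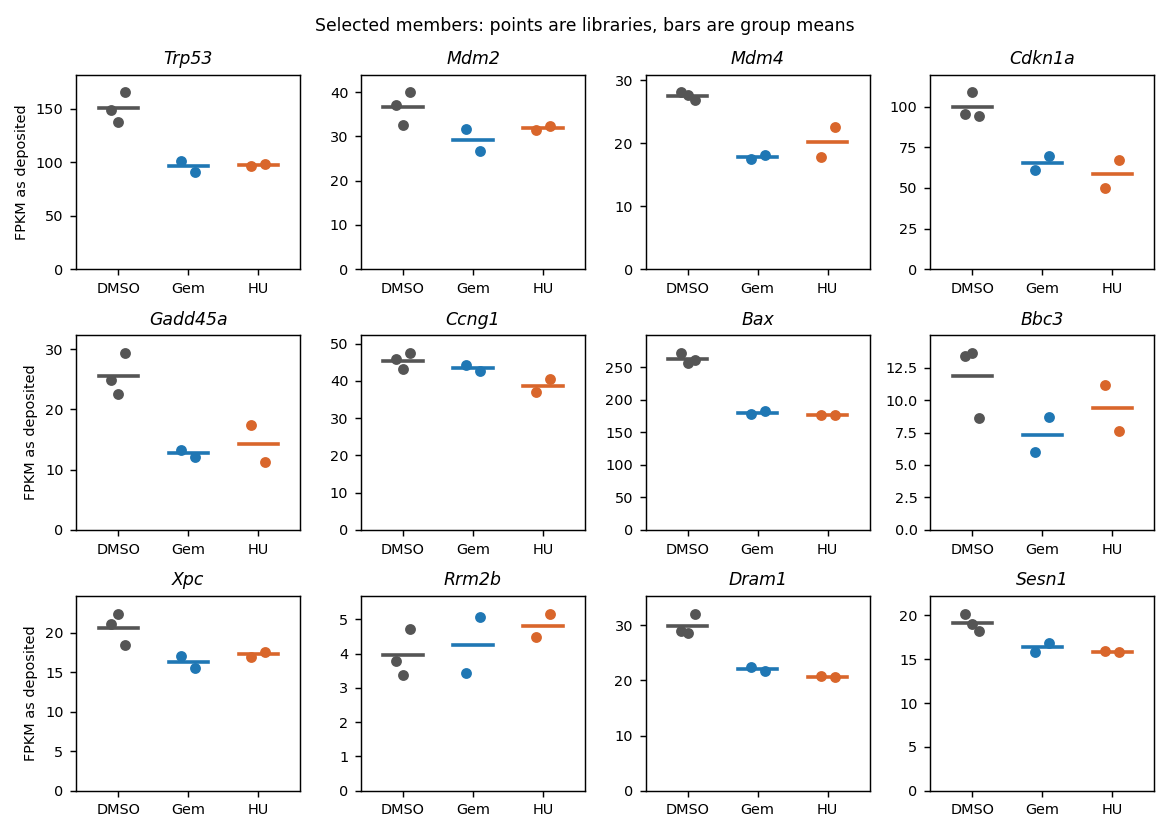
FPKM as deposited of 12 p53 genes in each library (points) with the group mean (bar), for DMSO (n = 3), Gem (n = 2) and HU (n = 2), each axis starting at 0. Trp53, Mdm4, Cdkn1a, Gadd45a, Bax, Xpc, Dram1 and Sesn1 have every drug point below every DMSO point, as has Mdm2 by a narrow margin, and the points of Ccng1, Bbc3 and Rrm2b mix between DMSO and Gem.

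Among the 7 growth arrest genes, Cdkn1a and Gadd45a were lower in each drug as deposited, Btg2 was lower in HU, and Ccng1, Plk2, Plk3 and Zmat3 did not pass. The median of the list was -0.19 in Gem and -0.22 in HU, closer to 0 than the median of all genes. Cdkn1a encodes p21, the inhibitor of cyclin-dependent kinases through which p53 arrests the cell cycle. It lies at chr17:29090976-29100727 and gave 95.9, 109 and 94.4 FPKM in DMSO, 61.2 and 69.5 in Gem, and 50.1 and 67.4 in HU. All 4 drug libraries lay well under the lowest DMSO library. The level fell by 0.60 ± 0.14 in Gem (adjusted p = 0.0198) and by 0.77 ± 0.14 in HU (adjusted p = 0.00497). After scaling it was -0.30 (adjusted p = 0.301) and -0.41 (adjusted p = 0.0992), and the groups stayed apart.

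Gadd45a, a stress sensor that interacts with p21 and with the replication factor PCNA, had the largest log2 fold change of the tested members in each drug. It lies at chr6:67035096-67037457 and gave 24.9, 22.6 and 29.3 FPKM in DMSO, 13.3 and 12.1 in Gem, and 17.3 and 11.2 in HU. The mean in Gem, 12.7 FPKM, compares with 25.6 in DMSO. The fall was by 0.95 ± 0.18 in Gem (adjusted p = 0.0130) and by 0.82 ± 0.18 in HU (adjusted p = 0.0114). Scaled, the values were -0.67 (adjusted p = 0.151) and -0.48 (adjusted p = 0.176). A scaled fit without HU 1, added after the data were seen, called it lower in the drugs combined, at -0.71 (adjusted p = 0.0352).

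Btg2, an antiproliferative protein that acts on messenger RNA decay, gave 44.7, 41.8 and 39.5 FPKM in DMSO, 31.8 and 34.8 in Gem, and 30.3 and 35.9 in HU (chr1:134075170-134079120). No drug library reached the DMSO range. It fell by 0.34 ± 0.10 in HU (adjusted p = 0.0340) and missed the threshold in Gem at -0.33 (adjusted p = 0.0541). Scaling brought it to -0.03 and 0.02 in Gem and HU. The Gem calls of Cdkn1a and Gadd45a were lost without Gem 1 and without Gem 2, and that of Cdkn1a also without DMSO 1 or DMSO 2. In HU, Gadd45a lost its call without HU 2, and Btg2 lost its own in 5 of the 7 fits that each left out 1 library, all but those without DMSO 3 or HU 2. In the drugs combined, Cdkn1a and Gadd45a were called in all 7 of these fits, and Btg2 in all but the fit without DMSO 1.

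Ccng1 encodes cyclin G1, a p53 target with a role in the feedback onto p53. It was among the members nearest to 0 in Gem, with 45.8, 43.1 and 47.5 FPKM in DMSO, 44.2 and 42.5 in Gem, and 37.0 and 40.5 in HU. Its deposited log2 fold change was -0.07 in Gem (adjusted p = 0.578) and -0.22 in HU (adjusted p = 0.0590). The scaled values were 0.23 (adjusted p = 0.208) and 0.13 (adjusted p = 0.367), and Gem lay above DMSO without overlap on that scale.

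Plk2, a polo-like kinase induced by stress, rested on 1 control library. Its DMSO values were 20.3, 21.2 and 30.8 FPKM, beside 23.3 and 22.9 in Gem and 23.4 and 25.9 in HU. DMSO 3 lay above every drug library and the other controls below them. In scaled fits without DMSO 3, added after the data were seen, Plk2 was called higher in HU, at 0.60 (adjusted p = 0.0124), and in the drugs combined, at 0.53 (adjusted p = 0.0219). With all libraries the scaled HU value was 0.40 (95% interval -0.02 to 0.82, adjusted p = 0.216). Plk3, a related kinase, had 6.06 to 6.92 FPKM in DMSO and 4.98 to 6.44 in the drugs, and Zmat3, an RNA-binding protein, 0.97 to 1.29 and 0.85 to 1.15.

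Of the 13 apoptosis genes 11 were tested. Bax and Aen were lower in each drug as deposited, and Pmaip1, Fas and Ei24 were lower in HU and in the combined comparison. The remaining 6 tested genes, Bbc3, Phlda3, Pidd1, Apaf1, Perp and Trp53inp1, did not pass anywhere. The list's median was -0.28 in Gem and -0.31 in HU. Bax, the protein that forms pores in the mitochondrial outer membrane, had the smallest standard error of the tested members. At chr7:45461697-45466898 it gave 272, 256 and 261 FPKM in DMSO, 178 and 183 in Gem, and 176 and 177 in HU, so the drugs lay together and far below DMSO. The fall was by 0.54 ± 0.063 in Gem (adjusted p = 0.00575) and by 0.57 ± 0.063 in HU (adjusted p = 0.00128). After scaling the groups were still apart, at -0.24 (95% interval -0.40 to -0.09, adjusted p = 0.130) and -0.21 (-0.37 to -0.06, adjusted p = 0.0879).

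Aen, a nuclease that takes part in DNA fragmentation during apoptosis, gave 28.6, 28.0 and 30.8 FPKM in DMSO, 22.0 and 20.1 in Gem, and 22.6 and 23.9 in HU (chr7:78895854-78911209). The level fell by 0.45 ± 0.086 in Gem (adjusted p = 0.0129) and by 0.31 ± 0.086 in HU (adjusted p = 0.0247). Scaled values were -0.16 in Gem and 0.03 in HU, on opposite sides of 0. Ei24, a membrane protein of the endoplasmic reticulum linked to cell death and autophagy, gave 14.0, 15.9 and 14.3 FPKM in DMSO, 10.9 and 13.0 in Gem, and 11.4 and 9.83 in HU (chr9:36779159-36797393). It fell by 0.44 ± 0.12 in HU (adjusted p = 0.0234), against -0.28 in Gem (adjusted p = 0.123), and the scaled values were -0.11 in HU and -0.0018 in Gem.

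Pmaip1, which encodes the BH3-only protein Noxa, gave 12.7, 12.2 and 12.6 FPKM in DMSO, 8.98 and 10.9 in Gem, and 10.1 and 9.43 in HU. It fell by 0.33 ± 0.11 in HU with an adjusted p of 0.0489, just inside the threshold, and stood at -0.31 in Gem (adjusted p = 0.0809). Fas, the death receptor, gave 21.6, 16.5 and 26.7 FPKM in DMSO, 14.2 and 16.0 in Gem, and 15.5 and 11.7 in HU (chr19:34290666-34327772). The DMSO libraries were widely spread and only just clear of the highest Gem library. Its fall in HU was by 0.62 ± 0.20 (adjusted p = 0.0448), and the Gem value was -0.47 (adjusted p = 0.129). Scaled, Pmaip1 was at -0.03 and 0.0013 and Fas at -0.18 and -0.27 in Gem and HU.

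In HU the call of Bax held in all 7 fits that each left out 1 library. Bax and Aen lost their Gem calls without Gem 2 (adjusted p = 0.0615 and 0.10). In HU, Aen lost its call without DMSO 1, DMSO 3, HU 1 or HU 2, and Ei24 lost its own without DMSO 2, HU 1 or HU 2. Pmaip1 was still called in HU only without Gem 1 or Gem 2, and Fas only without DMSO 2. In the drugs combined, Bax and Aen were called in all 7 such fits. Pmaip1 lost its combined call without any 1 of the DMSO libraries or HU 2, Fas without DMSO 1, DMSO 3, Gem 1 or HU 2, and Ei24 without DMSO 1, DMSO 2 or HU 2.

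Bbc3, which encodes the BH3-only protein Puma, gave 13.4, 13.6 and 8.64 FPKM in DMSO, 5.99 and 8.68 in Gem, and 11.1 and 7.63 in HU. DMSO 3 lay within the drug range, and the log2 fold changes of -0.62 in Gem (95% interval -1.20 to -0.05, adjusted p = 0.104) and -0.31 in HU (-0.88 to 0.27, adjusted p = 0.351) did not pass. Apaf1, the scaffold of the apoptosome, stayed close to its DMSO range, with 14.5, 12.3 and 10.5 FPKM in DMSO, 11.9 and 11.9 in Gem, and 12.9 and 12.8 in HU. Its scaled value in HU was 0.39 (95% interval 0.09 to 0.68, adjusted p = 0.103), with HU above DMSO. Phlda3, a repressor of Akt signalling, ranged from 2.50 to 5.16 in DMSO and 2.31 to 3.41 in the drugs. Pidd1, a death-domain protein, spanned 5.21 to 6.80 and 4.30 to 6.49 FPKM in DMSO and the drugs, Trp53inp1, a nuclear stress protein, 5.36 to 7.56 and 4.78 to 6.36, and Perp, a membrane protein of desmosomes, 0.46 to 1.43 and 0.35 to 1.01.

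Tnfrsf10b, the receptor for the death ligand Trail, and Eda2r, a receptor for an ectodysplasin form, stayed under the level for testing. Tnfrsf10b gave 0.26, 0.50 and 0.36 FPKM in DMSO, 0.51 and 0.59 in Gem, and 1.01 and 0.78 in HU. Eda2r gave 0.20, 0.14 and 0.19, then 0.23 and 0.51, then 0.76 and 0.88. Both were higher in every drug library than in every DMSO library, with HU above Gem, the same order as the mean of the chemosensory receptor genes given above. Whether the 2 patterns share a source was not tested.

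The 4 genes of DNA repair and nucleotide supply gave 0 calls in Gem or in HU taken alone. Of all genes, 23.2% and 35.5% were called lower, and 4 genes are too few to tell 0 calls from these shares. At an unadjusted limma p below 0.05 there were 1 and 0 of the 4, with no share of all genes to set beside them. Xpc, the damage sensor of nucleotide excision repair, gave 21.1, 22.4 and 18.4 FPKM in DMSO, 17.0 and 15.6 in Gem, and 17.0 and 17.6 in HU (chr6:91489305-91515888). Every drug library was lower than every DMSO library. Xpc fell in the drugs combined by 0.28 ± 0.089 (adjusted p = 0.0338), a call that held only without DMSO 3 or without HU 2 among the 7 fits that each left out 1 library. The single-drug values were -0.32 (adjusted p = 0.0630) and -0.24 (adjusted p = 0.109), and after scaling -0.03 in Gem and 0.10 in HU.

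Ddb2, the partner of Xpc in recognising ultraviolet damage, had 5.57 to 6.88 FPKM with DMSO, 4.90 to 5.50 with Gem and 5.01 to 5.49 with HU, and did not pass (adjusted p = 0.213 and 0.202). Polk, a translesion polymerase, overlapped, at 7.58 to 9.15, 6.19 to 8.71 and 5.96 to 7.82 FPKM. Rrm2b encodes the p53-inducible small subunit of ribonucleotide reductase, the enzyme that hydroxyurea inhibits. It gave 3.78, 3.39 and 4.72 FPKM in DMSO, 3.44 and 5.08 in Gem, and 4.48 and 5.16 in HU. Among the tested members it had the most positive fold change in each drug. The deposited values were 0.07 in Gem (adjusted p = 0.803) and 0.24 in HU (95% interval -0.21 to 0.68, adjusted p = 0.357). Scaled, HU lay above DMSO without overlap at 0.53 (95% interval 0.06 to 1.00, adjusted p = 0.150).

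Of the 4 genes of metabolism and autophagy, Dram1 was lower in each drug as deposited, Sesn1 and Sesn2 only in the drugs combined, and Ddit4 in none. The list's median was -0.34 in Gem and -0.44 in HU. Dram1, a lysosomal membrane protein that promotes autophagy, gave 29.0, 28.7 and 32.1 FPKM in DMSO, 22.4 and 21.7 in Gem, and 20.7 and 20.7 in HU (chr10:88322804-88379080). Groups were tight and apart. It fell by 0.42 ± 0.084 in Gem (adjusted p = 0.0138) and by 0.51 ± 0.084 in HU (adjusted p = 0.00386), and after scaling stood at -0.13 (adjusted p = 0.497) and -0.16 (adjusted p = 0.310). Its Gem call was lost without Gem 1 or Gem 2, and its HU call held in all 7 fits that each left out 1 library.

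The sestrins restrain mTORC1 and counter oxidative stress. Sesn1 gave 20.2, 19.1 and 18.3 FPKM in DMSO, 15.9 and 16.9 in Gem, and 16.0 and 15.8 in HU (chr10:41809935-41908424). Sesn2 gave 14.0, 17.5 and 15.1 in DMSO, 12.02 and 8.40 in Gem, and 9.38 and 13.4 in HU (chr4:132492032-132510501). In each gene the drug libraries lay below DMSO, tightly for Sesn1 and with a wide spread for Sesn2. Sesn1 fell by 0.23 ± 0.074 in the drugs combined (adjusted p = 0.0333) and Sesn2 by 0.50 ± 0.16 (adjusted p = 0.0312).

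Each of these 2 calls held in 2 of the 7 fits that each left out 1 library: Sesn1 without DMSO 3 or Gem 2, and Sesn2 without Gem 1 or HU 2. After scaling Sesn1 turned to 0.07 in Gem and 0.09 in HU, while Sesn2 was at -0.29 and -0.09. Ddit4, an inhibitor of mTORC1 that also answers to glucocorticoids and hypoxia, gave 1.66, 1.70 and 1.44 FPKM in DMSO, 1.19 and 1.16 in Gem, and 0.65 and 1.21 in HU. All drug libraries were below DMSO, and the fold changes of -0.26 and -0.44 did not pass (adjusted p = 0.391 and 0.126).

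The drugs were also set directly against each other. As deposited, the log2 difference itself uses no DMSO library. Its interval and p-value draw on the spread of all 7 libraries, DMSO included. No p53 gene was called in either direction by limma, with 0 members at an unadjusted p below 0.05, beside 0.0793% of all genes called lower in Gem than in HU and 0.0216% higher. Log2 differences, Gem minus HU, ran from -0.31 for Bbc3 to 0.35 for Perp, with a median of -0.02, and the smallest adjusted p was 0.555. After scaling there were again 0 calls and 0 members at an unadjusted p below 0.05, beside 0.108% and 0.0216% of all genes, and the smallest adjusted p was 0.550. For Trp53 the difference was -0.02 (95% interval -0.26 to 0.22) and for Bax 0.03 (-0.13 to 0.19). For Cdkn1a it was 0.16 (-0.18 to 0.51), and for Gadd45a -0.13 (-0.60 to 0.34). With 2 libraries a side these intervals do not show that the drugs act alike.

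Genes that act on p53 from upstream were read from a list of 28 that are not members, 24 of them tested. As deposited, 4 were called lower in Gem, 8 in HU and 8 in the drugs combined, with 0 higher in each. These shares of the tested list, 16.7%, 33.3% and 33.3%, compare with 23.2%, 35.5% and 37.5% of all genes called lower. Rpl11, Crebbp and Prmt5 were among the 4 with the smallest p-values. Rpl11, a ribosomal protein that can bind and inhibit Mdm2, gave 808, 824 and 701 FPKM in DMSO, 563 and 511 in Gem, and 418 and 372 in HU. It fell by 0.53 ± 0.10 in Gem (adjusted p = 0.0127) and by 0.97 ± 0.10 in HU (adjusted p = 0.00113), and in HU it was still called after scaling, at -0.61 (adjusted p = 0.0124). The acetyltransferase gene Crebbp fell by 0.62 in HU (adjusted p = 0.00277), and the arginine methyltransferase gene Prmt5 by 0.26 and 0.35 in Gem and HU (adjusted p = 0.0474 and 0.0109). After scaling neither gene was called, and Prmt5 stood at 0.03 in Gem and -0.0025 in HU.

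After scaling, 1 of the 24 tested upstream genes was called higher and 1 lower in HU (4.17% each), beside 4.67% and 5.42% of all genes. In Gem 0 were called. In the drugs combined 2 were higher (8.33%) and 0 lower, beside 2.34% and 3.74% of all genes. Chek2, a checkpoint kinase that phosphorylates p53, gave 26.9, 25.0 and 20.8 FPKM in DMSO, 28.0 and 24.7 in Gem, and 25.6 and 26.7 in HU, and overlapped as deposited. On the scaled values it was higher in HU at 0.46 ± 0.11 (adjusted p = 0.0364) and in the drugs combined at 0.44 ± 0.086 (adjusted p = 0.0274). Trp53bp1, a p53-binding protein recruited to DNA breaks, was higher in the drugs combined at 0.59 ± 0.14 (adjusted p = 0.0465), and neither gene passed as deposited (adjusted p = 0.359 and 0.0940). Naming Chek2 and Trp53bp1 followed a look at their values.

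A list of 40 further p53 targets that are not members had 31 tested genes, of which 6 were called lower and 0 higher in Gem, and 11 lower and 1 higher in HU, as deposited. The shares called lower, 19.4% and 35.5%, compare with 23.2% and 35.5% of all genes. Rps27l, Ier3, Dcxr and Dglucy had the smallest p-values. Rps27l, a ribosomal protein paralogue that feeds back on Mdm2 and p53, gave 480, 495 and 432 FPKM in DMSO, 309 and 255 in Gem, and 215 and 211 in HU. It fell by 0.74 ± 0.10 in Gem (adjusted p = 0.00695) and by 1.13 ± 0.10 in HU (adjusted p = 0.00102). In HU it was also called lower after scaling, at -0.77 (adjusted p = 0.00670), and so was Ier3, an early response gene, at -0.38 (adjusted p = 0.0293), whose deposited values fell by 0.57 and 0.73 (adjusted p = 0.00770 and 0.00144). Rps27l has a close ribosomal relative in Rps27, and how reads were split between them is not given in the sources used here.

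Dcxr, a carbonyl reductase, fell by 0.45 in Gem and 0.54 in HU (adjusted p = 0.0196 and 0.00581), and Dglucy, a mitochondrial glutamate cyclase, by 0.43 and 0.52 (adjusted p = 0.0216 and 0.00617). Their scaled values, -0.15 and -0.19 for Dcxr and -0.14 and -0.19 for Dglucy, did not pass. The 1 gene called higher in HU, 3.23% of the tested list beside 4.46% of all genes, was Cpt1c, a carnitine palmitoyltransferase relative. It gave 0.46, 0.36 and 0.44 FPKM in DMSO and 1.28 and 2.17 in HU. The log2 difference was 0.92 (adjusted p = 0.0154) as deposited and 1.08 (adjusted p = 0.0261) scaled. Its DMSO values lay under the 1 FPKM needed for testing and its HU values above. The HU libraries alone thus met the filter, so its p-values are not independent of a high level in HU. Its call is given as a description only. The mean of the chemosensory receptor genes was also higher in HU, and whether these rises share a source was not tested. Cpt1c was chosen after its values were seen.

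Some members share sequence with other annotated genes, and the protocols do not say that reads kept their strand. In the GENCODE M21 annotation an opposite-strand gene overlaps exons of Cdkn1a by 273 bases, Gadd45a by 337, Plk3 by 84, Ei24 by 324, Ddb2 by 652 and Rrm2b by 734. A same-strand gene overlaps Bax by 192 bases, and pseudogenes of Trp53 and Mdm4 are annotated. Values of these genes carry that uncertainty.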

How the data were processed

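RNA of sorted and cultured mouse haematopoietic stem cells was measured in 7 libraries (3 DMSO, 2 Gem, 2 HU). Per the labels' protocols, RNA was amplified by a Geo-seq method for small inputs and made into libraries with a transposase kit. The authors deposited 1 table of FPKM per gene symbol, to 2 decimals. Tools listed in the submitters' processing notes, with no roles, are Cufflinks 2.1.1, Bowtie 0.12.9, DESeq2 and HTSeq, beside the build mm10. The sources used here do not give the tool or annotation behind the FPKM. All columns were used (0 left out). No step of 1 read could be recovered, so the depth is unknown and no interval that needs a depth is given.

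The 13865 genes that reached 1 FPKM in 2 or more libraries were tested in limma 3.58.1 (R 4.3.3) on log2(FPKM + 1), with a moderated variance and mean-variance trend, two-sided, p-values adjusted by Benjamini-Hochberg over all tested genes and called below 0.05. One model held the 3 groups, and another compared the 4 libraries of either drug with the 3 of DMSO. The scaled analysis used an unweighted trimmed mean of log ratios between libraries, trimming 30% of ratios and 5% of levels at each end. Alternatives were another pseudocount (0.1), other filters, scalings and variance models, a replicate block, fewer groups in the model, and each library left out. The method was tested on simulated data. No 2 libraries were duplicates: replicate pairs had Pearson correlations of 0.971 to 0.989 across genes, which are not independent.

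Members were matched by symbol, with no threshold on their values, but they and the gene lists were chosen with earlier results of these data known, so counts over them are descriptions. Named were Trp53, Cdkn1a, Mdm2 and every member that passed in a comparison, with full values, other members with single values, and of each further list the 4 genes with the smallest p, of which 1 is not reported here. Gene positions are from GENCODE M21 on GRCm38 (mm10) and promoter sequences from RefSeq (GRCm38.p6). Promoters were matched by symbol, and decamers were searched as exact matches in windows of 300 bases.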

Additional observations from a re-analysis of the deposited data

How the results depend on the processing

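Apart from scaled fits with 1 library left out, no alternative called a p53 gene higher. The counts called lower depended most on the scaling between libraries. Under trimmed-mean scaling, one common sum per library and quantile normalization they were 0, 2 and 0 in Gem (7 as deposited), 0, 0 and 0 in HU (11), and 0, 4 and 0 in the drugs combined (14). The members' median was -0.026, -0.11 and -0.057 in Gem, 0.042, 0.028 and 0.024 in HU, and 0.011, -0.030 and -0.019 in the drugs combined, and with a common sum the median of Gem against HU was -0.15. Testing all genes without a filter left 8 lower in the drugs combined. Leaving out each library in turn gave 0 to 9 lower in Gem (0 without Gem 2, 3 without Gem 1), 5 to 9 in HU (6 without DMSO 1, 5 without HU 1, 6 without HU 2) and 7 to 12 combined (7 without DMSO 1). In the scaled fits with 1 library left out, added after seeing the data, the counts were 0 to 1 lower and 0 to 1 higher.

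Deviations of same-numbered libraries from their group means correlated at -0.0736 to 0.0549. In a group of 2 libraries these deviations mirror each other, so the check cannot exclude that replicate numbers pair the samples. With the number as a replicate block, 7 members were lower in Gem, 7 in HU and 9 combined, against 7, 11 and 14 without it.

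Over all 30 tested members, trimmed-mean scaling turned the sign of 10 log2 fold changes in Gem, 16 in HU and 12 in the drugs combined, 0 of them past the threshold (smallest adjusted p = 0.208, 0.367 and 0.167, all Ccng1). Among the 15 members named with full values, 31 values turned positive under the scalings, 0 past the threshold (smallest adjusted p = 0.219, limma with Benjamini-Hochberg adjustment). In Gem these were Sesn1 at 0.071 under trimmed-mean scaling, and under quantile normalization Mdm2 at 0.022, Btg2 at 0.017, Ei24 at 0.0071 and Sesn1 at 0.094. In HU the values under trimmed-mean scaling were 0.17 for Mdm2, 0.016 for Btg2, 0.0013 for Pmaip1, 0.035 for Aen, 0.10 for Xpc and 0.088 for Sesn1. With a common sum they were 0.15 for Mdm2, 0.016 for Aen, 0.086 for Xpc and 0.070 for Sesn1. Under quantile normalization they were 0.25 for Mdm2, 0.11 for Btg2, 0.027 for Bax, 0.010 for Pmaip1, 0.095 for Aen, 0.14 for Xpc and 0.12 for Sesn1. In the drugs combined, trimmed-mean scaling gave 0.074 for Mdm2, 0.035 for Xpc and 0.079 for Sesn1, a common sum 0.017 for Mdm2 and 0.023 for Sesn1, and quantile normalization 0.14 for Mdm2, 0.064 for Btg2, 0.062 for Xpc and 0.11 for Sesn1. The cause was not tested.

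The files carry no depth, so how far sampling limits genes of low FPKM is unknown. With 2 libraries per drug, each drug's spread rests on 1 pair.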
